A study of Mus musculus with 10 samples.

Results

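Tight junctions seal the space between neighbouring epithelial cells. Their strands are built from claudins, occludin and other membrane proteins, and scaffold proteins on the inner face of the membrane tie the strands to actin. Mouse embryonic fibroblasts (MEFs) lack such strands, and a mesenchymal-to-epithelial transition is an early step when they are reprogrammed towards pluripotent stem cells. The transcripts of 9 tight junction genes were followed here through reprogramming with and without FoxO6, a forkhead transcription factor. They were chosen by name and found in the expression files by their gene symbol, and they are 9 of 48476 genes. They cover the claudins Cldn3, Cldn4, Cldn6 and Cldn7, which form the paracellular barrier, the tetraspan proteins occludin (Ocln) and tricellulin (Marveld2), the junctional adhesion molecule A (F11r), and the ZO scaffolds ZO-1 (Tjp1) and ZO-3 (Tjp3).

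MEFs from E13.5 embryos of the strain CBA/CaJ X C57BL/6J received retroviruses for Oct4, Klf4 and Sox2 (OKS) in both arms and were kept in iCD1 medium, a chemically defined reprogramming medium. The control arm also received DsRed, a red fluorescent protein (OKS + DR), and the other arm received FoxO6 (OKS + FoxO6). By the study's methods the MEFs carried an Oct4-GFP reporter. Each arm gave 1 bulk RNA-seq library at days 0, 1, 3, 5 and 7, 10 libraries in all, so a difference on a single day has no replicate check. The 5 libraries of an arm may all derive from a single infected culture, and tests over the days describe these time courses rather than independent infections. In bulk RNA, fewer cells of a type and less RNA per cell cannot be told apart. The libraries held between 1208379 and 2225750 expected counts, which leaves few reads for genes of low expression. Foxo6 had at most 4 reads in any OKS + DR library and TPM values of 762.11 to 1356 in OKS + FoxO6, day 0 included. Levels are given in TPM (transcript abundance scaled to length and to library size), with the estimated reads beside them where they are few. Ratios are of reads per library scaled by TMM, and their 95% intervals (exact, Clopper-Pearson) cover counting error only.

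The labelled cell type was checked against its markers. Fibroblast markers were present in every library, with a summed level of 10 genes that went from 7576 TPM at day 0 to 2341 TPM at day 7 in OKS + DR and from 6493 to 2583 TPM in OKS + FoxO6, with 2319 and 3087 TPM at day 5. In the test of a shift over the days described further on, Dcn (log2 fold change 1.15), Pdgfra (0.96) and Postn (0.70) were called higher and Col3a1 (-0.64) lower in OKS + FoxO6. The 6 epithelial markers summed to between 84.0 and 746 TPM in OKS + DR and to between 37.0 and 190 TPM in OKS + FoxO6. These included Krt19 at 78.2 TPM in OKS + DR and 30.2 TPM in OKS + FoxO6 at day 0. Keratinocyte markers summed to at most 15.3 TPM, and Krt15 was at 0 in all libraries. Endothelial markers reached 57.8 TPM in OKS + DR, mostly from Tek, and 142 TPM in OKS + FoxO6, mostly from Tek and Kdr, and both genes were called higher in OKS + FoxO6 (log2 fold changes 0.95 and 2.19). At day 7 Pecam1 (5.73 against 0.76 TPM) and Cldn5 (2.28 against 0 TPM, from 3 reads) were on the other side, higher in OKS + DR. Cdh5 stayed at or below 1.24 TPM throughout. The 5 pluripotency markers ended at 287 TPM in OKS + DR and at 49.2 TPM in OKS + FoxO6. The part of these cell types in the differences between the arms was not tested.

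The 9 genes lie on 7 chromosomes of GRCm38, and 2 pairs are near neighbours. Cldn4 (ENSMUSG00000047501, chromosome 5 from 134945119 to 134946934, minus strand) and Cldn3 (ENSMUSG00000070473, chromosome 5 from 134986214 to 134987472, plus strand) are both single-exon genes, 39279 bases apart with no annotated gene between them. Ocln (ENSMUSG00000021638, chromosome 13 from 100496507 to 100552718) and Marveld2 (ENSMUSG00000021636, chromosome 13 from 100595957 to 100616971), both on the minus strand, are 43238 bases apart with 0 protein-coding genes between. Cldn7 (ENSMUSG00000018569) lies on chromosome 11 from 69964779 to 69967885 and Cldn6 (ENSMUSG00000023906) on chromosome 17 from 23679249 to 23682446, both on the plus strand. F11r (ENSMUSG00000038235) lies on chromosome 1 from 171437535 to 171464603, plus strand. Tjp1 (ENSMUSG00000030516) lies on chromosome 7 from 65296165 to 65527781 and Tjp3 (ENSMUSG00000034917) on chromosome 10 from 81273207 to 81291581, both on the minus strand. The 3′ end of Cldn3 overlaps the antisense gene Wbscr25, and the 3′ end of Tjp3 overlaps Apba3 on the other strand. The sources do not give a strand setting for the counting, so reads from these overlaps cannot be told apart.

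The promoters were read because E-boxes, the sites of the epithelial repressors of the Snail and Zeb families, are known from several epithelial promoters. Windows of RefSeq on GRCm38.p6, from 250 bases before to 50 after each annotated start, were found for all 9 genes (13 windows, since some genes have more than 1 start). The E-box CAGGTG, searched on both strands like the motifs that follow, was in 11 of the 13 windows and in 8 of the 9 genes, Tjp1 being the gene without it. The only Tjp1 window lies inside the gene as GENCODE draws it, at the start of shorter transcripts, and the far 5′ end of the gene was not read. Of all 32851 windows 20.21% held the E-box, and of 27025 genes 22.56%. The windows of Ocln overlap, as do those of Marveld2, and each pair shares an E-box that is counted in both windows. The forkhead letters GTAAACA were in 0 of the 9 genes, against 4.05% of all genes, and CACCC, a core of sites bound by Klf4, was in 6 of 9, against 59.82% of all genes. Neither strand of the E-box contains CACCC. The windows printed here are those of the 3 claudins with the most reads, which have the E-box, and that of Tjp1, which does not. They are written 5′ to 3′ on the strand of the gene, with the E-boxes in capitals.
Cldn3 promoter, chr5:134985964-134986263, plus strand: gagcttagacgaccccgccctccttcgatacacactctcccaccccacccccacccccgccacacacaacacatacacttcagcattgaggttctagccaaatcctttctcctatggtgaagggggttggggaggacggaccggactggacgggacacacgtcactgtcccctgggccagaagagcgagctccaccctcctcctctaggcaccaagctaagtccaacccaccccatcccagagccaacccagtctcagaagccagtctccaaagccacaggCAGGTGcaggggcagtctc
Cldn4 promoter, chr5:134946885-134947184, minus strand: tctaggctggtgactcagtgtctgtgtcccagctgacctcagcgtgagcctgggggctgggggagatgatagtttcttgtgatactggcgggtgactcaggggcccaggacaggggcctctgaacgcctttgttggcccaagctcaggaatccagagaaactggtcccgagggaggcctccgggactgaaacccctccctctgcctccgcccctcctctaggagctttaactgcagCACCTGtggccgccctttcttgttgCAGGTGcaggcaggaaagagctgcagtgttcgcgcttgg
Cldn7 promoter, chr11:69965171-69965470, plus strand: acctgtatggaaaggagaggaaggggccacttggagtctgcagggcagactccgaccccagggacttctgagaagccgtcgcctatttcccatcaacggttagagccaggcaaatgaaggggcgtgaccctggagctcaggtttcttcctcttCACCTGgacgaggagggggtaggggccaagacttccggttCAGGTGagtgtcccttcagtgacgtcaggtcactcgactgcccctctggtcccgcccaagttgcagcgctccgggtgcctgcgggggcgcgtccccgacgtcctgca
Tjp1 promoter, chr7:65371195-65371494, minus strand: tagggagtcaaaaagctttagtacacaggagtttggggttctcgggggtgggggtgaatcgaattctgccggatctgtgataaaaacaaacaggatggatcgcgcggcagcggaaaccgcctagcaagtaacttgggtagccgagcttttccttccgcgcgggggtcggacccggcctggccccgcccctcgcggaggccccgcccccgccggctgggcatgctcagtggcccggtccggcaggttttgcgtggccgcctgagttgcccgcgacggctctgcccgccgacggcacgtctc

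In the Cldn3 window the E-box begins 32 bases after the start. The Cldn4 window has an E-box on each strand, at 14 bases before and 12 bases after the start, and the Cldn7 window has a pair at 97 and 57 bases before it. Cldn7 has another window, at a start further upstream, that holds no E-box. A match is a description of letters, and binding was not measured.

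The claudins Cldn3, Cldn4 and Cldn7 had at most 3 reads in either arm up to day 3, appeared late, and reached higher levels in the control arm. Cldn3 had 3.88, 0, 2.29, 14.6 and 36.1 TPM at days 0, 1, 3, 5 and 7 in OKS + DR, from 3, 0, 2, 12 and 42 reads. In OKS + FoxO6 it had 0, 0, 0.86, 2.47 and 11.2 TPM on the same days, from 0, 0, 1, 3 and 12 reads. OKS + DR was the higher library on days 0, 3, 5 and 7, while the ranges over the days overlapped. Cldn3 had 6.15 times as many scaled reads in OKS + DR at day 5 (95% interval 1.66 to 34.0) and 2.95 times as many at day 7 (1.53 to 6.16).

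Cldn4, a claudin that tightens the seal against cations, had 0.88, 0, 0, 3.33 and 31.1 TPM in OKS + DR, from 1, 0, 0, 4 and 53 reads. In OKS + FoxO6 it had 0.52, 0, 0.59, 1.69 and 6.36 TPM, from 1, 0, 1, 3 and 10 reads. The libraries were alike up to day 3, at no more than 1 read, and stood apart at day 7. There the ratio of OKS + DR over OKS + FoxO6 was 4.47 (2.25 to 9.86), against 2.05 (0.35 to 14.0) at day 5.

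Cldn7, which also sits along the basolateral membrane of epithelia, had 0, 0, 4.38, 6.88 and 15.7 TPM in OKS + DR and 0, 0, 0, 0.78 and 10.2 TPM in OKS + FoxO6. The value of 4.38 TPM rests on 1 read, because the effective length that RSEM gave Cldn7 ranged from 313 to 1274 bases between libraries. The reads were 6 against 1 at day 5, a ratio of 9.23 (1.12 to 424), and 17 against 10 at day 7, a ratio of 1.43 (0.62 to 3.51). Counting error at day 7 was thus wider than the difference. Cldn6, the claudin of the early embryo and of pluripotent cells, never had more than 3 reads in a library and was at 0 in 6 of the 10, so its levels could not be compared at this depth.

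Over the 4 claudins together, OKS + DR had 22 reads and OKS + FoxO6 had 9 at day 5, a ratio of 3.76 (1.66 to 9.28). At day 7 they had 115 and 32 reads, a ratio of 3.03 (2.03 to 4.64). The claudins made up 39.03% of the summed TPM of the 9 genes at day 7 in OKS + DR and 20.98% in OKS + FoxO6. These shares were 11.1% and 0.91% at day 0, from 4 reads and 1 read, then 1.13% and 0% at day 1, 5.54% and 2.10% at day 3 and 14.9% and 4.22% at day 5.

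**Figure D1:**
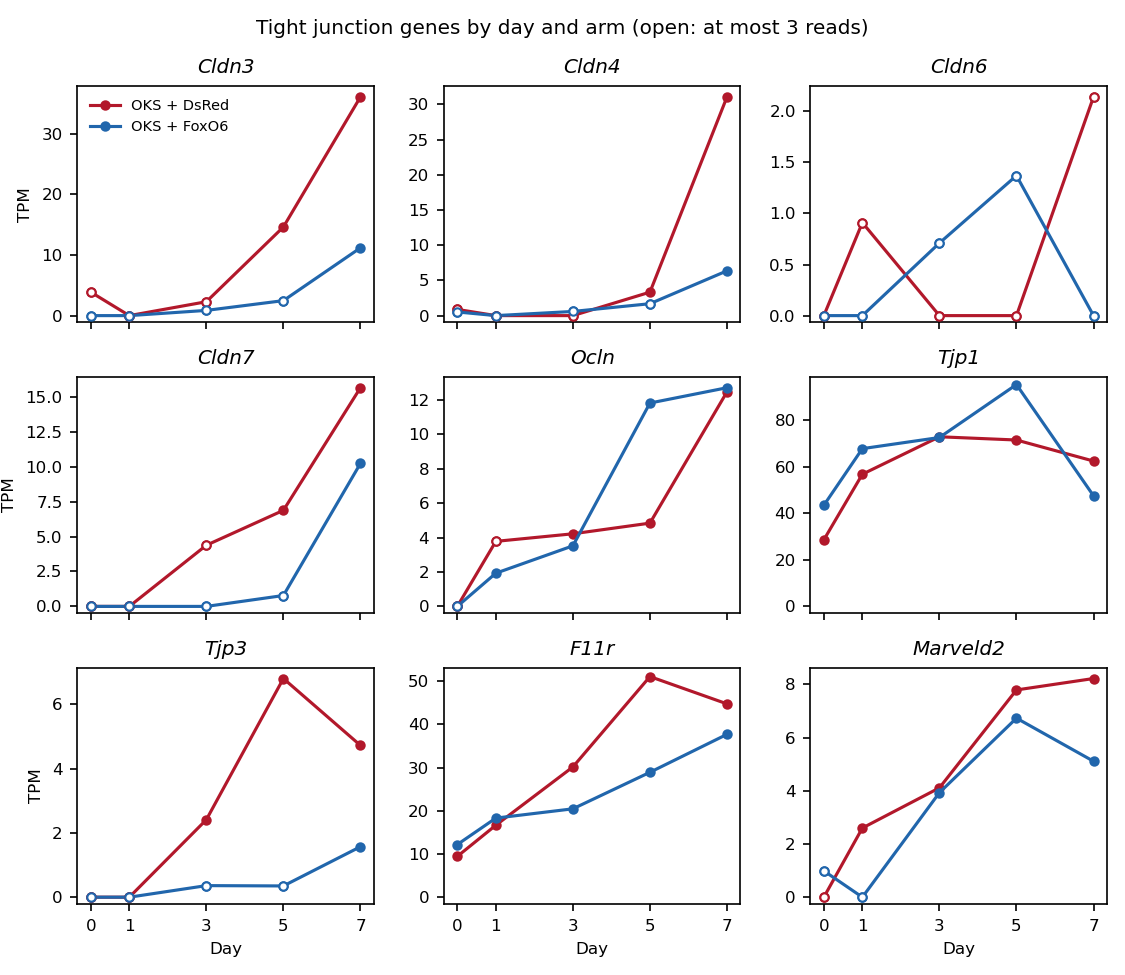
TPM (vertical axes, each with its own scale) by day (horizontal axes) for the 9 tight junction genes in OKS + DR, drawn as OKS + DsRed (red), and OKS + FoxO6 (blue), with 1 library per point and open points for at most 3 reads. Cldn3, Cldn4 and Cldn7 climb late and end at 36.1, 31.1 and 15.7 TPM in red against 11.2, 6.36 and 10.2 TPM in blue, while Ocln and Tjp1 are higher in blue at day 5.

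Ocln, a tetraspan protein of the strands, did not follow the claudins. It had 0, 3.78, 4.22, 4.84 and 12.5 TPM in OKS + DR and 0, 1.93, 3.52, 11.8 and 12.7 TPM in OKS + FoxO6. The arms ended at like levels, and OKS + FoxO6 was higher at day 5, with 37 against 9 reads, a ratio of 2.67 (1.27 to 6.30). Its effective length ranged from 1048 to 3203 bases, so TPM and reads can give different folds: at day 7 the TPM values were 12.5 and 12.7, while the ratio of scaled reads was 1.49 (0.83 to 2.70). Marveld2, which lines the corners where cells meet, had 0, 2.60, 4.11, 7.79 and 8.22 TPM in OKS + DR and 0.99, 0, 3.93, 6.73 and 5.11 TPM in OKS + FoxO6. OKS + DR was the higher arm in TPM from day 3 on. The ratio of scaled reads, OKS + DR over OKS + FoxO6, was 1.36 (0.48 to 3.87) at day 3 and 1.45 (0.68 to 3.05) at day 5. At day 7 the 24 and 12 reads gave a ratio of 1.69 (0.81 to 3.70). Each interval included 1, and the effective length ranged from 1822 to 3001 bases.

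F11r was already transcribed in the day 0 libraries of both arms, with 15 and 33 reads. Its levels were 9.45, 16.7, 30.2, 51.1 and 44.8 TPM in OKS + DR and 12.2, 18.3, 20.5, 28.9 and 37.7 TPM in OKS + FoxO6. In TPM OKS + FoxO6 was the higher arm at days 0 and 1 and the lower one from day 3. The ratio of OKS + DR over OKS + FoxO6 was 0.85 at day 0 (0.43 to 1.61) and 0.92 at day 1 (0.55 to 1.52). It was 1.502 at day 3 (1.001 to 2.26), 1.84 at day 5 (1.33 to 2.55) and 1.09 at day 7 (0.81 to 1.47). The differences at days 0, 1 and 7 were thus within counting error.

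The scaffolds differed from each other. Tjp1 was the most abundant of the 9 genes per length in every library, with 28.6, 56.8, 72.9, 71.5 and 62.5 TPM in OKS + DR and 43.5, 67.8, 72.6, 95.3 and 47.5 TPM in OKS + FoxO6. With 122 to 616 reads a library, its counting error was small, and its ratio of OKS + FoxO6 over OKS + DR changed side between days. It was 1.34 at day 0 (1.08 to 1.66), 1.196 at day 1 (1.02 to 1.40), 0.96 at day 3 (0.83 to 1.10), 1.42 at day 5 (1.23 to 1.64) and 0.68 at day 7 (0.57 to 0.80). Tjp3, a scaffold found mostly in epithelia, had 0, 0, 2.41, 6.80 and 4.72 TPM in OKS + DR and 0, 0, 0.36, 0.35 and 1.57 TPM in OKS + FoxO6. Its reads were 5 against 1 at day 3, 12 against 1 at day 5 and 13 against 4 at day 7. The day 5 ratio was 18.5 (2.73 to 789), and the day 7 ratio was 2.74 (0.85 to 11.5).

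**Figure D2:**
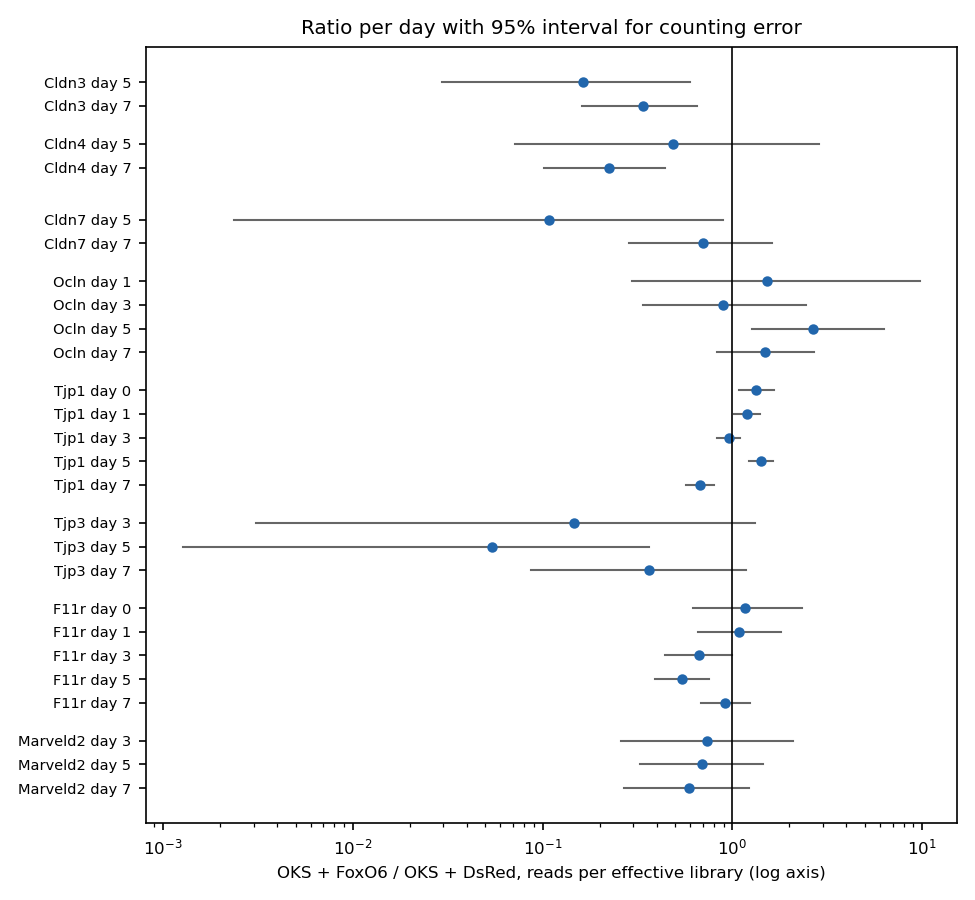
Ratio of scaled reads, OKS + FoxO6 over OKS + DR (drawn as OKS + DsRed), on a log axis for each gene and day with more than 3 reads in 1 library and at least 1 in the other. Points are ratios and lines are 95% intervals for counting error. Cldn3 at days 5 and 7, Cldn4 and Tjp1 at day 7, Cldn7 and Tjp3 at day 5 and F11r at days 3 and 5 lie wholly to the left of 1, and Ocln at day 5 and Tjp1 at days 0, 1 and 5 wholly to the right.

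By day 7 the order of the levels per length was Tjp1, F11r, Cldn3, Cldn4, Cldn7, Ocln, Marveld2, Tjp3 and Cldn6 in OKS + DR. In OKS + FoxO6 it was Tjp1, F11r, Ocln, Cldn3, Cldn7, Cldn4, Marveld2, Tjp3 and Cldn6. The exact Poisson intervals of Tjp1 (56.4 to 69.0 TPM) and F11r (36.7 to 54.1 TPM) did not meet in OKS + DR. In OKS + FoxO6 those of F11r (30.0 to 46.8 TPM) and Ocln (8.51 to 18.3 TPM) did not meet. All other neighbours in both orders had intervals that met, except that Cldn6 in OKS + FoxO6 had 0 reads and no interval. Cldn3 (26.0 to 48.8 TPM) and Cldn4 (23.3 to 40.6 TPM) met in OKS + DR. Counting from the first day with more than 3 reads, Cldn3, Cldn4 and Cldn7 appeared at day 5 in OKS + DR and at day 7 in OKS + FoxO6. Tjp3 appeared at day 3 and day 7, and Marveld2 at day 1 and day 3. Ocln appeared at day 3 in OKS + DR and at day 1 in OKS + FoxO6. The libraries of OKS + FoxO6 held more counts than those of OKS + DR at days 0, 1, 3 and 5 and fewer at day 7.

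Set against the whole transcriptome, the 20448 genes that reached 1 TPM in some library gave the background for a change of over 2-fold on the log2(TPM + 1) scale, which understates the change of low genes. From day 0 to day 7, 9 of the 9 genes were over 2-fold higher in OKS + DR (background 21%) and 7 of 9 in OKS + FoxO6 (background 13.6%), where Tjp1 and Cldn6 were not. The 9 in OKS + DR include Cldn6, which had 0 reads at day 0 and 3 at day 7. The median difference was 2.93 in OKS + DR and 1.62 in OKS + FoxO6, against 0 over all genes in each arm. Where day 0 had 0 reads, ratios were taken against 3 reads, without the counting error of the day 7 reads. On that footing Cldn7 was 3.46-fold higher at day 7 in OKS + DR and 4.52-fold higher in OKS + FoxO6. Ocln was 4.68-fold higher in OKS + DR and 13.1-fold higher in OKS + FoxO6. These values grow with the depth of the day 0 library, which was greater in OKS + FoxO6, so they do not compare the arms.

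Between the arms, 1 of the 9 genes was over 2-fold lower in OKS + FoxO6 at day 0 (Cldn3, with 3 reads against 0) and 0 were higher, against backgrounds of 7.06% lower and 11% higher. At day 1, 1 was lower (Marveld2, with 5 reads against 0) and 0 were higher (10.2% and 8.64%). At day 3, 2 were lower (Cldn7, with 1 read against 0, and Tjp3) and 0 were higher (12.2% and 8.96%). At day 5, 3 were lower (Cldn3, Cldn7 and Tjp3) and 2 were higher (Ocln, and Cldn6 from 2 reads), against 12% and 11%. At day 7, 4 were lower (Cldn3, Cldn4, Tjp3, and Cldn6 from 3 reads) and 0 were higher (16.9% and 8.54%). The median difference of the 9 genes was 0 at days 0 and 1, then -0.21, -0.69 and -0.59 at days 3, 5 and 7, while that of all genes was 0 on these days but for -0.0049 at day 7.

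A shift between the arms shared by the 5 days was tested by fitting day and arm to the counts of 12212 genes (edgeR's quasi-likelihood test, p-values adjusted over all of them by Benjamini-Hochberg). Of the 9 genes 8 passed the filter on low counts, and Cldn6 did not. No gene of the 8 passed an adjusted p of 0.05, with 0 called lower (background 6.97%) and 0 higher (6.48%), and 2 of 8 had an unadjusted p under that value, against 27.7% of all genes. DESeq2 called 0 as well (background 9.72% in either direction). The estimates were negative for 6 and positive for 2, with a median of -1.03 on the log2 scale against -0.027 over all genes. The lowest were Tjp3 at -2.41 (SE 0.94, adjusted p = 0.093) and Cldn3 at -2.05 (SE 0.67, adjusted p = 0.057). Without the filter on low counts Cldn3 passed at an estimate of -2.02 (SE 0.69), with an adjusted p of 0.0226. That fit called 2253 genes in all, against 1642 with the filter. With the filter Cldn4 was at -1.43 (SE 0.72), Cldn7 at -1.34 (SE 0.97), Marveld2 at -0.71 (SE 0.56) and F11r at -0.30 (SE 0.20). Tjp1 was at 0.11 (95% interval -0.23 to 0.46) and Ocln at 0.64 (-0.30 to 1.58). As a reference in the same libraries, Cdh1, the E-cadherin of adherens junctions, was lower in OKS + FoxO6 by a log2 fold change of -3.12 (SE 0.22, adjusted p = 4.5e-05). Epcam, an epithelial adhesion molecule that binds Cldn7, was at -1.87 (SE 0.33, adjusted p = 0.0054), a call that DESeq2 did not make (adjusted p = 0.19) and that was lost without day 5 (adjusted p = 0.057).

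The course over the days was tested with a slope in each arm. In OKS + DR, 4 of the 8 genes rose (background 5.71%). Cldn4 rose by 1.16 log2 units per day (SE 0.34, adjusted p = 0.0064), Cldn7 by 0.93 (SE 0.25, adjusted p = 0.0082), Cldn3 by 0.66 (SE 0.19, adjusted p = 0.021) and F11r by 0.30 (SE 0.054, adjusted p = 0.0067). The estimates of Tjp3, Ocln and Marveld2 were 0.65, 0.48 and 0.46 with adjusted p-values from 0.069 to 0.11, and DESeq2 called these as well, 7 genes in all, against a background of 7.59% called higher by DESeq2. Without the day 7 library of OKS + DR only 1 of the 4 calls stood. There Cldn4 and Cldn7 no longer passed the filter on low counts, as was also so without day 7 of OKS + FoxO6 (2 calls), and Cldn3 had an adjusted p of 0.24. It also missed the threshold without the day 1 library (adjusted p = 0.057). Tjp1, at 0.094 (SE 0.065), did not pass. Its slope was 0.017 without the day 0 library of OKS + DR and 0.16 without day 7, and passed in neither. Without that day 0 library the slopes of Cldn3 and Cldn4 were steeper, at 1.035 and 1.72.

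In OKS + FoxO6 4 of the 8 rose too (background 4.59%). These were Cldn7 at 1.34 (SE 0.66, adjusted p = 0.0079), Cldn3 at 1.01 (SE 0.39, adjusted p = 0.025), Ocln at 0.63 (SE 0.16, adjusted p = 0.036) and F11r at 0.23 (SE 0.053, adjusted p = 0.022). DESeq2 called 5 (its background 6.19%), adding Marveld2 at 0.55 (SE 0.19, adjusted p = 0.039). The Wald interval of Cldn7, -0.11 to 2.80, reached below 0 although the quasi-likelihood test called it, from 11 reads in all. Without day 0 of OKS + FoxO6 1 of the 4 passed, although the slopes of Cldn3 (1.03), F11r (0.22) and Ocln (0.47) stayed positive, and calls over all genes went from 1168 to 176. Without its day 7, 0 passed, with slopes of 0.89, 0.20 and 0.88 for the same genes. The number was 3 without day 7 of OKS + DR, where Cldn7 no longer passed the filter. Without the day 1 library of OKS + FoxO6 2 were left, as Cldn3 and Ocln missed the threshold (adjusted p = 0.072 and 0.075). Without its day 3 or day 5 library Ocln missed it (adjusted p = 0.059 and 0.076), as it did without day 5 of OKS + DR (adjusted p = 0.055). The difference between the slopes was tested itself and passed in 0 of the 8 genes (background 0%), with 0 of the 8 under an unadjusted p of 0.05. Over all 12212 genes edgeR called 0 such differences, with 1025 under an unadjusted p of 0.05, and DESeq2 called 33 (0.27%). For Cldn4 the difference was -0.48 per day with a 95% interval of -1.46 to 0.50, and for Cldn3 it was 0.34 (-0.61 to 1.30). These intervals leave room for large differences either way.

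**Figure D3:**
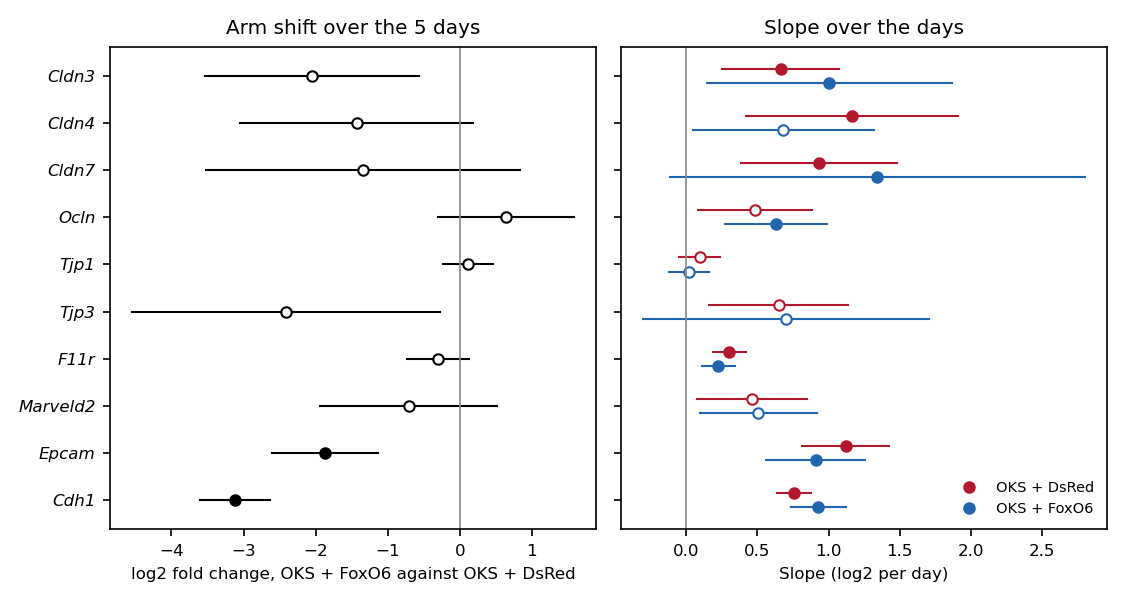
Estimates and 95% intervals from the edgeR fits for the 8 genes tested and for Epcam and Cdh1. The left panel gives the log2 fold change of OKS + FoxO6 against OKS + DR (drawn as OKS + DsRed) over the 5 days, and the right panel the slope in log2 units per day in each arm. Filled points have an adjusted p under 0.05. On the left Epcam and Cdh1 are filled, at -1.87 and -3.12, and no tight junction gene is, while on the right 4 are filled in each arm.

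Other genes of the tight junction were taken from 4 lists. Of the other claudins, 25 of 26 were in the files and 5 could be tested. Of these 0 were lower (background 6.97%) and 2 were higher (background 6.48%) in OKS + FoxO6. Cldn1, a claudin of the skin barrier, had 0, 1.66, 3.44, 3.67 and 0.97 TPM in OKS + DR, from at most 8 reads, and 8.54, 14.9, 28.4, 16.7 and 10.9 TPM in OKS + FoxO6. Every OKS + FoxO6 library was above every OKS + DR library, and the log2 fold change was 3.04 (SE 0.39, adjusted p = 0.00039). Cldn12 had between 17.4 and 31.8 TPM in OKS + DR and between 32.2 and 60.0 TPM in OKS + FoxO6, again without overlap (log2 fold change 0.96, SE 0.16, adjusted p = 0.0037). Both claudins kept an adjusted p under 0.05 in 10 of 10 alternatives. They stood on the other side from the estimates for Cldn3, Cldn4 and Cldn7, of which none was called. Cldnd1, the most abundant of this list at a mean of 89.5 TPM, was at 0.13 (SE 0.12), and Cldn34c1 at 0.53 (SE 0.40).

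Of 13 other transmembrane genes in the files 8 were tested, with 2 lower and 1 higher. The shares over all genes were 6.97% and 6.48%. The lower ones, Ildr1 and Lsr, belong to the angulins, the receptors that bring tricellulin to tricellular contacts. Ildr2, the other angulin, was at 0.39 (SE 0.64, adjusted p = 0.75) and did not pass. Ildr1 had 0, 10.1, 30.0, 60.6 and 77.8 TPM in OKS + DR and 0.65, 2.04, 3.28, 8.28 and 10.3 TPM in OKS + FoxO6, a log2 fold change of -2.59 (SE 0.31, adjusted p = 0.00044). Lsr had 0, 1.41, 12.8, 37.0 and 50.7 TPM in OKS + DR and 0.49, 0, 2.10, 9.85 and 19.7 TPM in OKS + FoxO6 (log2 fold change -1.83, SE 0.38, adjusted p = 0.0089), a call lost without day 5 (adjusted p = 0.088). The estimate for Marveld2 itself was smaller, at -0.71. Tmem47, a claudin-like membrane protein, was higher by 0.78 (SE 0.21, adjusted p = 0.034), and this was lost without day 3 or day 5 (adjusted p = 0.145 and 0.137). The 3 most abundant, Cxadr, Marveld1 and Jam3, were at -0.21, -0.10 and -0.22 and did not pass.

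Of 19 plaque and scaffold genes 17 were tested, with 0 lower (background 6.97%) and 2 higher (background 6.48%). Amot, an angiomotin that binds polarity and Hippo pathway proteins, had 9.27 to 23.0 TPM in OKS + DR and 5.65 to 42.3 TPM in OKS + FoxO6 (log2 fold change 0.85, SE 0.18, adjusted p = 0.013). Mpp5, the Pals1 scaffold of the Crumbs complex, was at 0.64 (SE 0.16, adjusted p = 0.022). Amot was lost without day 3 or day 5 (adjusted p = 0.057 and 0.062), and Mpp5 without day 1, 3 or 5 (adjusted p = 0.075 to 0.089). The most abundant of the list, Ybx3, Mllt4 and Sympk, were at -0.11, 0.24 and 0.27 and did not pass. Of 22 polarity and trafficking genes 18 were tested, with 1 lower and 1 higher, a share close to the same background of 6.97% and 6.48%. St14, the membrane protease matriptase of epithelia, had 5.23, 4.92, 13.3, 39.3 and 68.2 TPM in OKS + DR and 1.42, 1.90, 4.17, 8.23 and 17.8 TPM in OKS + FoxO6 (log2 fold change -1.73, SE 0.24, adjusted p = 0.0013). Lin7c, a small partner of Pals1, was at 0.44 (SE 0.13, adjusted p = 0.043), and this was lost without day 0, 1, 3 or 5 (adjusted p = 0.062 to 0.162). Cdc42 and Prkci, at a mean of 387 and 78.4 TPM, were at 0.14 and 0.06 and did not pass. The list medians were 0.53 for other claudins, -0.15 for other transmembrane genes, 0.015 for plaque and scaffold and 0.010 for polarity and trafficking, against -0.027 over all genes.

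**Figure D4:**
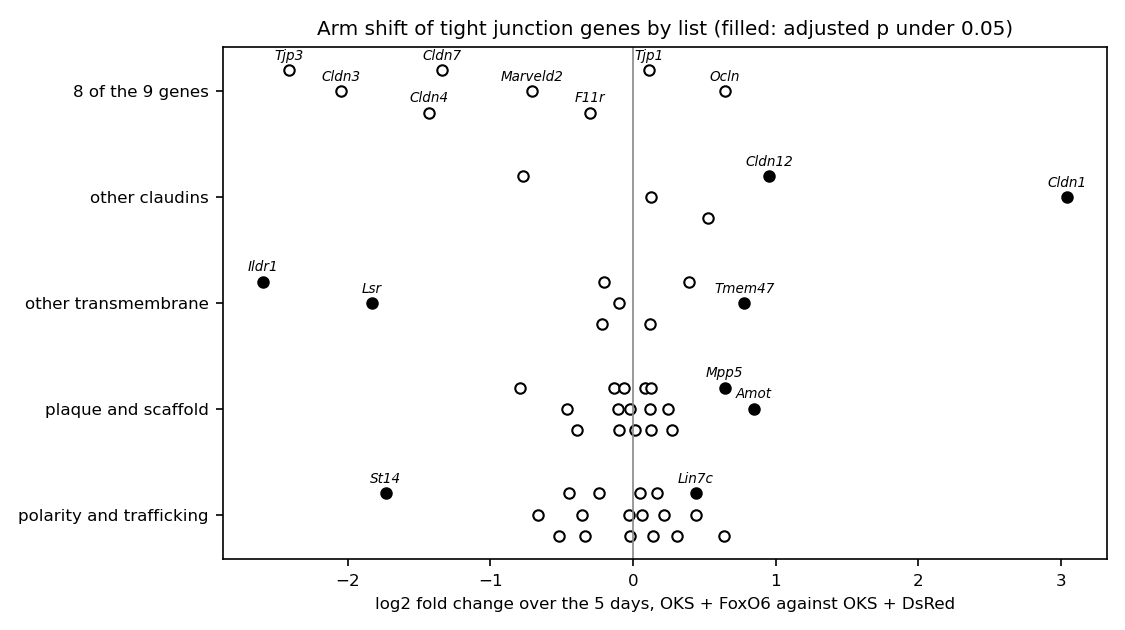
Log2 fold change over the 5 days, OKS + FoxO6 against OKS + DR (drawn as OKS + DsRed), for each tested gene of the 9 and of 4 other tight junction lists, 1 point per gene. Filled points have an adjusted p under 0.05. Cldn1 at 3.04 lies far to the right, and Ildr1 at -2.59 lies to the left of every other point, while Lsr and St14, at -1.83 and -1.73, lie between Tjp3 at -2.41 and Cldn7 at -1.34.

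The 9 genes did not form a single profile. Across the 10 libraries, which share arm, day and depth, Pearson's r of log2(TPM + 1) was 0.90 for the neighbours Cldn3 and Cldn4, 0.89 for Cldn3 and Cldn7 and 0.91 for Cldn7 and Tjp3. It was 0.86 for F11r and Marveld2, 0.85 for F11r and Ocln and 0.83 for the neighbours Ocln and Marveld2. F11r was at 0.88 with Tjp3 and 0.87 with Cldn7. Ocln and Cldn3 were at 0.56, and Tjp1 was at 0.005 with Cldn3 and 0.009 with Cldn4. The genes whose profile was most like the mean of the 9, among 11418 genes whose TPM averaged 5 or more over the libraries, were Zfp42 (r = 0.990), Gpr179 (0.988), Olfr718-ps1 (0.987), Gm38312 (0.982), Gpx2 (0.980), Celsr1 (0.977), Gm20362 (0.977), Rfx2 (0.977), Aldoc (0.976) and Pglyrp1 (0.976). Zfp42, the pluripotency marker Rex1, had 0, 0.78, 4, 17.4 and 39.3 TPM in OKS + DR and 0, 0, 1.22, 9.97 and 12.6 TPM in OKS + FoxO6. Epcam stood at rank 18 (0.970) and Cdh1 at rank 150 (0.914).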

How the data were processed

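Bulk RNA-seq libraries of 2 arms at 5 days, 1 per arm and day, were grouped by their labels. The authors aligned reads with RSEM and Bowtie2 to the GENCODE transcriptome on mm10 (GRCm38), and the deposited expected counts and TPM values are RSEM estimates, the counts without normalization. The study's methods name a TruSeq kit and the labels a VAHTS kit. Totals were 1208379 to 2225750 counts per library (median 1601151), so low genes rest on few reads, and intervals cover counting error only. The table of the whole series held 48476 genes, and 2124 more were only in the files per library, with at most 0.312% of a library's counts.

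R 4.3.3 with edgeR 4.0.16 fitted the expected counts, rounded to whole numbers, with TMM and filterByExpr. The arm shift had day as a factor (4 residual degrees of freedom, common dispersion 0.0366) and the slopes were separate per arm (6 residual degrees of freedom, common dispersion 0.0627). SEs are Wald SEs. DESeq2 1.42.0 was an alternative. The code was tested on simulated data. Daily differences used log2(TPM + 1) without a test, and ratios against 0 reads used 3 reads in place of 0. Python 3.11.15 with scipy 1.17.1 gave exact intervals. Coordinates are from GENCODE M21 on GRCm38.

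Named genes were the 9 members, Foxo6, Cdh1, Epcam, the 10 genes most like the members' mean profile, and, in 4 other lists, genes past the threshold or with the 3 highest mean TPM. Ildr2, Krt15, Krt19, Dcn, Pdgfra, Postn, Col3a1, Tek, Kdr, Pecam1, Cldn5 and Cdh5 fall outside this rule and were named after their values were seen. The members and lists were chosen with earlier results of these data known. Alternatives were other size factors, DESeq2, no filter, an offset for effective length, no day term, the order of the days, each day or library left out, a pseudocount of 0.1, CPM and a mean TPM of at least 5.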

Additional observations from a re-analysis of the deposited data

How the results depend on the processing

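The arm shift called 1642 genes, 169 without the day term, and 705 to 1640 with each day left out, and 0 of those of the 9 genes that were tested in each. Without the day term these were only Tjp1 and F11r, without day 7 only Ocln, Tjp1, F11r and Marveld2, and without day 5 all 8 but Tjp3. Some estimates moved: without day 5 they were -0.73 for Cldn7, -0.13 for F11r, 0.33 for Ocln and 0.0074 for Tjp1. Tjp1 was at 0.28 without day 7, Marveld2 at -0.43 without day 1, and Ocln at 0.22 with the offset for effective length. Without the filter 2253 genes were called, 1 of the 9 (Cldn3) among them. The OKS + DR slope called 1441 genes and 707 to 1526 with each library left out, and of the 9 genes 4, with 1 to 5 after leaving out a library and 7 by DESeq2. The OKS + FoxO6 slope called 1168 genes and 176 to 1516 with each library left out, and 4 of the 9 genes, with 0 to 5. The slope difference called 0 genes, 0 to 1 with each library left out, 33 by DESeq2 and 10 without the filter. The slope difference of Tjp3 was 0.049, and turned to -0.16 by DESeq2 and -0.011 without the filter. With each library left out it ranged from -0.11 to 0.20 for Tjp3, -0.019 to 0.47 for Cldn3, -0.15 to 0.077 for Tjp1, -0.15 to 0.29 for Marveld2 and -0.011 to 0.40 for Ocln. The Tjp1 slope in OKS + FoxO6 ranged from -0.060 to 0.17. None of these was called. With a pseudocount of 0.1, 1 gene was over 2-fold higher at day 0, 2 lower at day 1 and 2 higher at day 3. On CPM 1 was lower at day 3 and 1 higher at day 5. Among the 4 genes whose TPM averaged 5 or more, 0 were lower at days 1 and 3, 1 lower and 1 higher at day 5, 1 lower at day 7, and 4 in OKS + DR and 3 in OKS + FoxO6 higher at day 7 than at day 0. The counts among the 4 are of fewer genes. No share over all genes is given for the pseudocount of 0.1, CPM or the mean TPM of at least 5, so these counts have no background here. By Spearman's correlation 3 of the 10 most similar genes stayed, or 4 where ties at the last place are counted, and on CPM 7 stayed. The causes of the other changes were not tested. The calls of Cdh1, Epcam, Ildr1, Lsr, St14, Tmem47, Amot, Mpp5 and Lin7c were lost without the day term (adjusted p from 0.060 to 0.55), those of Mpp5 and Lin7c by DESeq2 (0.066 and 0.080), and those of Tmem47, Amot and Mpp5 with the offset for effective length (0.17, 0.10 and 0.062). The arm shift pairs the arms by day, and the fit without the day term is the unpaired one. No further block was fitted, because each arm has 1 library per day. Depth limits all of the 9 genes but Tjp1 and F11r, which alone among them had over 3 reads in every library.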
